A study of Rattus norvegicus with 4 samples.

Results

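Ptgds and 9 further enzymes that make or inactivate prostaglandins were followed in rat lumbar dorsal root ganglia (DRG), ganglia of sensory neuron cell bodies, glia and other cells. These 10 genes were 10 of the 22293 protein-coding genes in the deposited table, and 8 of them were among the 14719 genes with enough counts to be tested. Ptgds was selected on its higher counts in both cisplatin libraries of these same samples, so its values are given as a description and without a test. The other 9 enzymes (Hpgds, Ptgs1, Ptgs2, Ptges, Ptges2, Ptges3, Ptgis, Hpgd and Ptgr1) were chosen by name, as the cyclooxygenases, terminal synthases and inactivating enzymes around Ptgds.

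RNA was sequenced from neonatal wild-type (WT) Wistar rats, 2 given cisplatin, a platinum-based chemotherapeutic, and 2 given the vehicle, phosphate-buffered saline (PBS). Cisplatin was injected intraperitoneally at 0.3 mg/kg on postnatal day (P) 14 and again on P16. The study's methods place the tissue collection at P23, whereas the labels give 16 days after treatment. Between 2 and 5 lumbar DRGs were pooled for each library, rats of both sexes were used in the study, and the sex of the rat behind each library is not given in the sources used here.

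Prostaglandins are short-lived lipid signals made from arachidonic acid. The cyclooxygenases Ptgs1 and Ptgs2 convert arachidonic acid to prostaglandin H2, and terminal synthases turn this shared intermediate into prostaglandin D2, E2, F2 alpha, prostacyclin or thromboxane, each with its own receptors. In sensory ganglia, prostaglandin E2 and prostacyclin are known as sensitisers of nociceptors. Ptgds encodes lipocalin-type prostaglandin D synthase, a secreted protein that also carries lipophilic molecules and that is known as an abundant product of the meninges, the choroid plexus and oligodendrocytes. Hpgds encodes the other prostaglandin D synthase, a cytosolic enzyme of mast cells, macrophages and related cells.

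The promoters of Ptgds and Ptges are shown because these are the synthase of interest and the inducible prostaglandin E synthase that it is set beside. RefSeq promoters of the GRCr8 assembly, each running from 250 bases before to 50 bases after the annotated start, were matched by symbol for 6 of the 10 genes, namely Ptgs1, Ptgs2, Ptgds, Ptges, Ptges3 and Hpgd. Hpgds, Ptges2, Ptgis and Ptgr1 had no entry. The Ptgds promoter lies at chr3:28682929-28683228 on the minus strand and the Ptges promoter at chr3:34586938-34587237, also on the minus strand. Both are printed 5′ to 3′, and capitals mark E-boxes (CANNTG, a sequence that reads as the same pattern on both strands).
Ptgds: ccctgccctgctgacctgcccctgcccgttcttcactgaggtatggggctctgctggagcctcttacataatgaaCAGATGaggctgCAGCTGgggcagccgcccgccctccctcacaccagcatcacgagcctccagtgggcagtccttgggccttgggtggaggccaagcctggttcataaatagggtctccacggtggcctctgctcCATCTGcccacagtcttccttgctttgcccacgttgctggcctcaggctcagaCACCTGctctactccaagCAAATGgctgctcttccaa
Ptges: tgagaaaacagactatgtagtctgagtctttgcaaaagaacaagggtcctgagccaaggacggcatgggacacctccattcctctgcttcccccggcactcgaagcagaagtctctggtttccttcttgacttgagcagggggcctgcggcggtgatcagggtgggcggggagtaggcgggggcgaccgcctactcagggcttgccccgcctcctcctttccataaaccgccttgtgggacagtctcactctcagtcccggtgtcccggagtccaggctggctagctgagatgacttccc
The Ptgds promoter held 5 E-boxes and the Ptges promoter 0. Of the other matched promoters, that of Ptgs2 held 4, Hpgd 3, Ptgs1 1 and Ptges3 0. Among 33465 rat promoters of the same length, 72.1% held at least 1 E-box and 1.77% held 5 or more. The GC box GGGCGG, counted on both strands, had 2 matches in the Ptgds and 1 in the Ptges promoter, and 33.1% of all promoters held it. Neither promoter held TATAAA, present in 14.2% of all promoters, or the AP-1 motif TGANTCA, present in 7.33%. These matches describe letters in a window and say nothing of binding.

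The libraries held 21384801 to 25618417 counts, and replicates of each group differed by more than sampling noise (chi-square per degree of freedom of 125 in the vehicle and 163 in the cisplatin pair). All 13 sensory neuron markers examined passed the filter on low counts. The vehicle replicate 1 library stood apart by markers of oligodendrocytes, cells of the central nervous system: Olig2 had 56 counts there and 0 in each of the other 3 libraries, and Mobp had 989 counts there and between 19 and 47 elsewhere. Some results are therefore also given without this library. The labels name each replicate as a separate rat. For 1 gene, 2 libraries against 2 allow no p under 0.333 in a two-sided exact permutation test, and the tests below rest on a spread modelled across all genes.

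Ptgds was about 4 times as abundant in cisplatin as in vehicle DRGs. Ptgds (ENSRNOG00000015550; chromosome 3, 2686123 to 2689084, minus strand, Rnor_6.0) had 2075 and 1460 counts in vehicle replicates 1 and 2 and 8085 and 8016 counts in cisplatin replicates 1 and 2. Scaled to library size with TMM normalisation (CPM), these were 82.9 and 74.2 CPM in the vehicle and 318 and 341 CPM in the cisplatin libraries. The groups were far apart and each pair of replicates was close, with the second vehicle library 10.5% below the first and the second cisplatin library 7.06% above the first. The log2 fold change was 2.07, a 4.195-fold difference. Without vehicle replicate 1, the library that held oligodendrocyte markers, the log2 fold change was 2.16. This value rests on the counts on which Ptgds was selected, and the part of oligodendrocytes in it was not tested.

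Per gene length, Ptgds stood among the well-expressed transcripts of vehicle ganglia and among the most abundant ones of cisplatin ganglia. Its deposited FPKM (fragments scaled to gene length and library size) were 103 and 91.5 in the vehicle and 396 and 425 in the cisplatin libraries, or 97.4 ± 8.37 against 410.3 ± 20.3 FPKM (SD, n = 2 each). Ranked by FPKM among the 22293 protein-coding genes, it stood at 714 and 878 in the vehicle and at 185 and 177 in the cisplatin libraries. Of the 14719 genes tested, 29 had a larger log2 fold change than Ptgds. Of the 791 genes with a mean CPM at least that of Ptgds, Ptgds itself included, 0 did. These ranks use the values on which Ptgds was selected, so they describe it and are no support for a difference. In whole tissue, more cells that express a gene and more RNA per cell cannot be told apart, which holds for every value below.

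**Figure D1:**
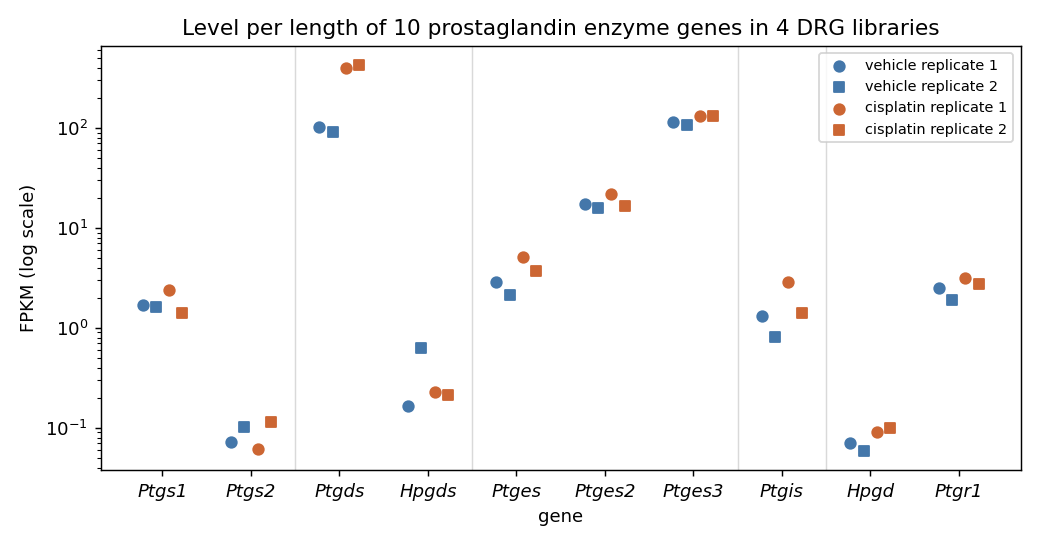
FPKM (log scale) of the 10 prostaglandin enzyme genes, ordered by role; each point is 1 library, blue for vehicle and orange for cisplatin, circles for replicate 1 and squares for replicate 2. Ptgds lies at 103 and 91.5 FPKM in the vehicle and at 396 and 425 FPKM in the cisplatin libraries, a gap on which it was selected.

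The 9 other enzymes did not pass the test for a difference between the groups. Of these, 7 could be tested, and edgeR's quasi-likelihood test with Benjamini-Hochberg adjustment over all genes called 0 of them (adjusted p-value under 0.05 and at least 1.5-fold). Across all genes this test called 1 of 14719 (0.00679%), so a call was rare in this comparison. At an unadjusted p under 0.05 it held 0 of the 7, against 1388 of all genes (9.43%), and DESeq2, which gave no adjusted p to Ptgs2, called 0 of the others, against 140 of all genes (0.951%). The median log2 fold change of the 7 was 0.24, and that of all genes tested was -0.01. The 13 sensory neuron markers had a median of 0.38. It ranged from 0.08 (without cisplatin replicate 1) to 0.59 (without vehicle replicate 1) when each library was left out. In both cisplatin libraries, 5 markers lay above (Snap25, Tubb3, Uchl1, Calca and Isl1) and 0 below, where 20.6% and 21.2% of all genes did. edgeR and DESeq2 called 0 of the 13 markers. Their summed level was 33610 and 25740 CPM in the vehicle and 41390 and 29540 CPM in the cisplatin libraries, highest in Nefl, and their part in the values of the enzymes was not tested.

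Ptges, Ptges3, Ptgis and Ptgr1 had more CPM in both cisplatin than in both vehicle libraries, whereas under scaling by library size alone only Ptges did. That is 4 of 7 genes, where 3038 of all genes tested (20.6%) lay above in the same way, and 0 of 7 lay below, where 3119 of all genes (21.2%) did. The remaining 3, Ptgs1, Ptgs2 and Ptges2, overlapped between the groups. With library size alone, 1 of 7 lay above, against 14.9% of all genes, and without vehicle replicate 1, 5 of 7 lay above, against 35.8% of all genes.

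**Figure D2:**
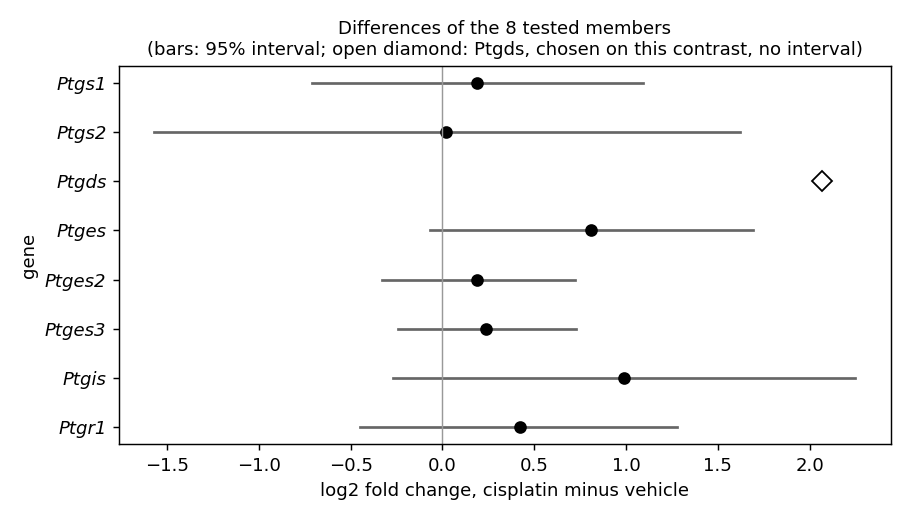
Log2 fold change (cisplatin minus vehicle, from edgeR) of the 8 prostaglandin enzyme genes that could be tested; bars are 95% intervals, and the open diamond is Ptgds, shown without an interval because it was chosen on this comparison. Ptgds lies at 2.07, and the intervals of the other 7 genes include 0.

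The cyclooxygenases, which carry out the step shared by all prostaglandins, were scarce and did not separate the groups. Ptgs1 (ENSRNOG00000007415; chromosome 3, 15560712 to 15582344), the constitutive enzyme, had 4.79 and 4.73 CPM in the vehicle and 6.81 and 4.04 CPM in the cisplatin libraries. The cisplatin pair thus spanned the vehicle pair, and the log2 fold change was 0.19 (standard error 0.36, 95% interval -0.71 to 1.09, adjusted p = 0.885 from edgeR). Ptgs2 (ENSRNOG00000002525; chromosome 13, 67351087 to 67359335), the enzyme induced in inflammation, showed 8 and 9 counts in the vehicle and 7 and 12 counts in the cisplatin libraries. The log2 fold change of 0.02 had an interval from -1.57 to 1.62 (standard error 0.64, adjusted p = 0.994 from edgeR), which includes a 2-fold difference in either direction. Per gene length, Ptgs1 exceeded Ptgs2 in every library, at 23.4 and 16.1 times its FPKM in the vehicle and 38.6 and 12.4 times in the cisplatin libraries.

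Of the prostaglandin D synthases, Ptgds made up nearly all of the transcript level. Hpgds (ENSRNOG00000006583; chromosome 4, 95946025 to 95970666) was covered by 5 and 15 counts in the vehicle and 7 and 6 counts in the cisplatin libraries, overlapped between groups and was below the filter on low counts. Its highest value, in vehicle replicate 2, was 0.630 FPKM. Ptgds had 145 times its FPKM in that library and 1994 times its FPKM in cisplatin replicate 2, ratios that rest on few Hpgds counts.

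The prostaglandin E synthases had smaller log2 fold changes than Ptgds, which was selected on its difference. Ptges (ENSRNOG00000006320; chromosome 3, 9727408 to 9738752), the microsomal enzyme that is induced together with Ptgs2 in inflammation, had 3.68 and 2.74 CPM in the vehicle and 6.53 and 4.72 CPM in the cisplatin libraries, so both cisplatin values lay above both vehicle values. The log2 fold change was 0.81 (standard error 0.35, 95% interval -0.07 to 1.69, adjusted p = 0.538 from edgeR). Ptges2 (ENSRNOG00000014050; chromosome 3, 11424099 to 11431402), the second membrane-associated enzyme, had 38.6 and 35.4 CPM in the vehicle and 47.9 and 36.6 CPM in the cisplatin libraries. Its groups overlapped, with a log2 fold change of 0.19 (standard error 0.21, interval -0.33 to 0.72, adjusted p = 0.78 from edgeR).

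Ptges3 (ENSRNOG00000002642; chromosome 7, 2479311 to 2497013), the cytosolic enzyme that also serves as a co-chaperone of Hsp90, was the most abundant of the 10 genes in the vehicle libraries. It had 193.6 and 182.2 CPM there and 222.3 and 222.8 CPM in the cisplatin libraries. The groups did not overlap, but the log2 fold change was 0.24 with an interval from -0.24 to 0.73 (standard error 0.19, adjusted p = 0.698 from edgeR). The upper end of this interval and of that of Ptges2 lay below a 2-fold difference.

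Ptgis (ENSRNOG00000008245; chromosome 3, 163950777 to 163986059), the prostacyclin synthase, had the second largest log2 fold change of the tested enzymes. Its counts were 57 and 28 in the vehicle and 126 and 57 in the cisplatin libraries, or 2.28 and 1.42 against 4.96 and 2.42 CPM. The groups did not overlap, but the second cisplatin library was only slightly above the first vehicle library. The log2 fold change was 0.99 (standard error 0.51, interval -0.27 to 2.25, adjusted p = 0.57 from edgeR), and without cisplatin replicate 1 it was 0.39.

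The inactivating enzymes were low. Hpgd (ENSRNOG00000010610; chromosome 16, 37457135 to 37495758), which starts the breakdown of prostaglandins, had 3 and 2 counts in the vehicle and 4 and 4 counts in the cisplatin libraries, at or close to the 3 counts taken as the smallest level to be read, and it was not tested. Ptgr1 (ENSRNOG00000015072; chromosome 5, 76110738 to 76129441), a prostaglandin reductase that acts after Hpgd, had 3.12 and 2.44 CPM in the vehicle and 3.94 and 3.49 CPM in the cisplatin libraries. Both cisplatin values lay above, with a log2 fold change of 0.42 (standard error 0.35, interval -0.45 to 1.28, adjusted p = 0.71 from edgeR).

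Ordered by FPKM within a library, Ptges3 stood above Ptgds in both vehicle libraries and below it in both cisplatin libraries. The ratio of Ptgds to Ptges3 FPKM was 0.904 and 0.859 in the vehicle and 3.02 and 3.23 in the cisplatin libraries. Ptges2 followed both in every library, between 15.9 and 21.7 FPKM. Then Ptges (2.12 to 5.10 FPKM), Ptgr1 (1.92 to 3.12 FPKM), Ptgs1 (1.41 to 2.38 FPKM) and Ptgis (0.814 to 2.86 FPKM) came. This order held within each library, except that Ptgis stood above Ptgs1 in cisplatin replicate 1 (2.86 against 2.38 FPKM). Hpgds, Ptgs2 and Hpgd stayed under 0.7 FPKM in every library.

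As a share of the summed FPKM of the 6 terminal synthases among these genes, Ptgds made up 43.1% and 42.1% in the vehicle and 71.1% and 73.5% in the cisplatin libraries. The means were 42.6 ± 0.74% and 72.3 ± 1.66% (SD, n = 2 each). The share of Ptges3 was 47.8% and 49.0% in the vehicle and 23.5% and 22.8% in the cisplatin libraries, while its own FPKM was not lower there. A fall in the share of a synthase is thus not a fall in its level. When all 14 terminal synthase genes found were summed, Ptgds made up 19.6% and 13.3% in the vehicle and 46.1% and 40.0% in the cisplatin libraries (16.4 ± 4.43% and 43.05 ± 4.35%, SD, n = 2 each). The wider sum was dominated in the vehicle libraries by Akr1b1, aldose reductase, an enzyme of sugar metabolism with prostaglandin F synthase activity, at 42.5% and 61.6% there and 26.1% and 39.8% in the cisplatin libraries.

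**Figure D3:**
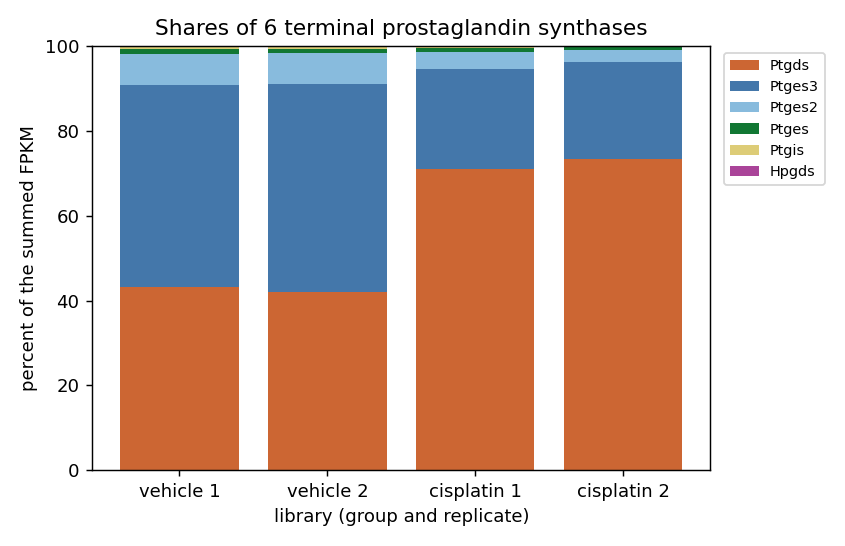
Share (percent) of the summed FPKM of 6 terminal prostaglandin synthases taken by each, 1 bar per library. Ptgds takes 43.1% and 42.1% in the vehicle and 71.1% and 73.5% in the cisplatin libraries, and Ptges3 takes most of the remainder in each.

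Genes around these enzymes were taken from 6 lists of 72 symbols, of which 50 gene IDs could be tested. Besides genes up- and downstream, the lists cover the competing leukotriene and lipoxygenase branch and the lipocalins, the protein family of Ptgds. edgeR called 0 of the 50, and DESeq2, which gave no adjusted p to 4 of them (Pla2g4a, Pla2g2a, Pla2g2d and Ptgdr), called 0, with 2 of 50 (Abcc4 and Lcn2) at an unadjusted p under 0.05 in edgeR. On TMM-scaled counts, 10 of 50 lay above and 7 below in both cisplatin libraries, against the 20.6% and 21.2% of all genes given above, and the median log2 fold change was 0.04. With the threshold unmet throughout, the genes named next are those with the smallest p among the non-overlapping ones of each list.

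Of the 14 tested genes that release arachidonic acid or its precursors, 4 lay above and 1 below, where 20.6% and 21.2% of all genes did. Their median log2 fold change was -0.01. Pla2g4a, the cytosolic phospholipase A2 that supplies the cyclooxygenases, had 27 and 17 counts in the vehicle and 13 and 11 counts in the cisplatin libraries (log2 fold change -0.98). Pla2g3, a secreted phospholipase A2, had 26.7 and 19.7 CPM in the vehicle and 45.3 and 28.0 CPM in the cisplatin libraries (log2 fold change 0.66). For both genes the groups were apart, and neither difference passed the threshold. The secreted phospholipase Pla2g2d differed by 1.17 on few counts (16 and 9 against 45 and 17). Faah, which hydrolyses fatty acid amides, differed by 1.82 at 1 of its 2 gene IDs (61 and 12 against 66 and 197 counts) and by -1.44 at the other, and is uncertain because reads may be split between them.

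Of the 7 other terminal synthases tested, 1 lay above and 1 below, against 20.6% and 21.2% of all genes. Their median was 0.30, and it was -0.02 without vehicle replicate 1. Akr1b8, an aldo-keto reductase, had 3.44 and 3.40 CPM in the vehicle and 4.64 and 5.14 CPM in the cisplatin libraries (log2 fold change 0.52), and Akr1c14, a further aldo-keto reductase, differed by -0.52. The thromboxane synthase Tbxas1 had 24 and 36 counts in the vehicle and 40 and 43 in the cisplatin libraries. Its level overlapped between the groups once scaled (1.83 CPM in vehicle replicate 2 and 1.57 CPM in cisplatin replicate 1).

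Of the 10 tested receptor genes, 0 lay above and 1 below, against 20.6% and 21.2% of all genes. Their median was -0.14, and it was 0.22 without vehicle replicate 1 and 0.24 without cisplatin replicate 2. Both receptors for prostaglandin D2 were near the limit of detection. Ptgdr, the DP1 receptor, had 21 and 6 counts in the vehicle and 13 and 11 counts in the cisplatin libraries (log2 fold change -0.25, 95% interval -1.90 to 1.40), and Ptgdr2, the receptor also known as CRTH2, had 2, 7, 2 and 1 counts across vehicle replicates 1 and 2 and cisplatin replicates 1 and 2 and was not tested. Tbxa2r, the thromboxane receptor, was the gene that lay below, at -0.24. Ptgir, the prostacyclin receptor of sensory neurons, had 52.8 and 31.0 CPM in the vehicle and 60.3 and 41.4 CPM in the cisplatin libraries, which overlapped.

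Among the 5 tested genes of inactivation and transport, 1 lay above and 1 below, against 20.6% and 21.2% of all genes. Their median was -0.30, and it was 0.09 without vehicle replicate 2. Abcc4, an exporter of prostaglandins, had 18.7 and 16.1 CPM in the vehicle and 12.2 and 11.8 CPM in the cisplatin libraries. The difference of -0.53 on the log2 scale (adjusted p = 0.527, edgeR) did not pass the threshold. Zadh2, also named Ptgr3, a prostaglandin reductase, lay above by 0.10. In the leukotriene and lipoxygenase branch, which competes for the same arachidonic acid, 3 of 8 lay above and 2 below, against the same shares of all genes. The median of this branch was 0.19. Ltc4s, leukotriene C4 synthase, differed by 0.96 on 19 and 14 against 47 and 24 counts, Alox5 by 0.49, Ephx2, soluble epoxide hydrolase, by 0.20, and Alox5ap, the activating protein of Alox5, by -0.45.

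Among the 6 tested lipocalins, the family of secreted carrier proteins to which Ptgds belongs, 1 lay above and 1 below, against 20.6% and 21.2% of all genes. Their median was 0.38, and it was 0.05 without vehicle replicate 1 and -0.03 without cisplatin replicate 2. Lcn2, an acute-phase lipocalin that binds siderophores, had 116 and 116 counts in the vehicle and 192 and 324 counts in the cisplatin libraries. Both cisplatin libraries were higher, and its log2 fold change of 1.02 ± 0.37 (SE; adjusted p = 0.522 in edgeR) did not pass the threshold. Per gene length, Apod was the most abundant lipocalin of the list, with 557.4 and 978.3 FPKM in the vehicle and 717.6 and 1272 FPKM in the cisplatin libraries, which overlapped. A further 5 lipocalins had 0 counts in every library.

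**Figure D4:**
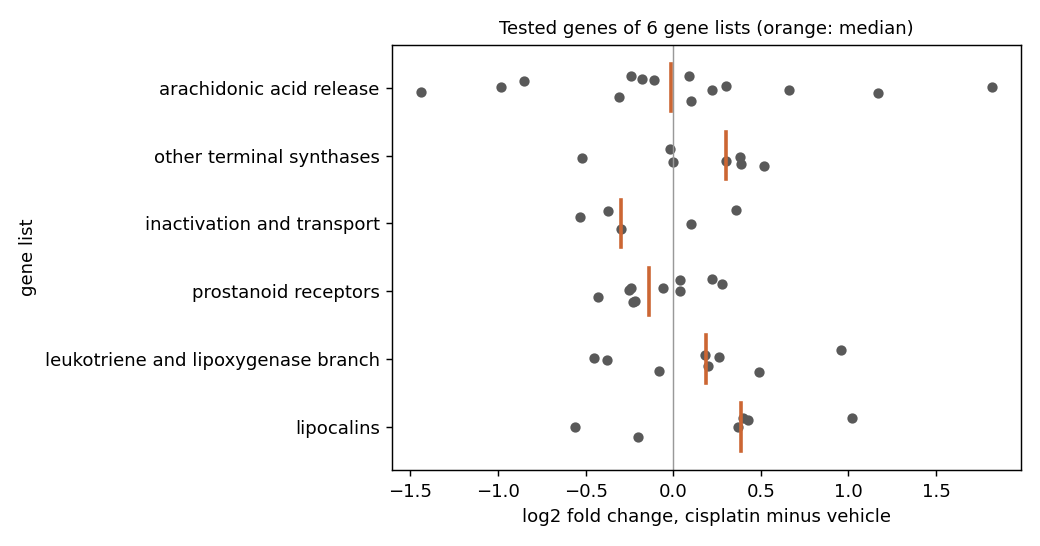
Log2 fold change (cisplatin minus vehicle, from edgeR) of every tested gene in 6 gene lists around the prostaglandin enzymes, 1 point per gene, with the median of each list as an orange line. The medians lie between -0.30 and 0.38, and no point reaches the 2.07 of Ptgds, which was selected on its difference.

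Markers of cell types known to express Ptgds were set beside it. Among the meningeal and arachnoid barrier markers, 15 gene IDs were tested, 5 lay above and 1 below in both cisplatin libraries, where 20.6% and 21.2% of all genes did, and the median log2 fold change was 0.23. The 5 were the barrier transporters Slc6a13 (0.64) and Slc13a4 (0.52), the retinoid-binding protein Crabp2 (0.60), the transcription factor Foxc1 (0.23) and Ranbp3l (0.96), and the 1 below was Ogn, which encodes a matrix proteoglycan (-2.59, with 436 counts in vehicle replicate 1 and 26 to 64 elsewhere). None of these passed the threshold in edgeR, while DESeq2 called 1 of the 15, Ogn. The summed level of the list was 150.7 and 184.9 CPM in the vehicle and 133.8 and 193.0 CPM in the cisplatin libraries, over which Igf2, its marker with the highest mean CPM, also overlapped (70.6 and 123.8 against 58.2 and 104.2 CPM). A second gene ID of Crabp2 had 0 counts in every library.

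Without vehicle replicate 1, 11 of the 15 meningeal markers lay above, against 35.8% of all genes, and their median log2 fold change was 0.64. Without vehicle replicate 2, 7 of 15 lay above, against 33.4%, with a median of 0.20. Without cisplatin replicate 1, 9 of 15 did, against 31.9%, with a median of 0.45. Without cisplatin replicate 2, 7 of 15 did, against 37.7%, with a median of 0.09. The difference in Ptgds was 2.16 without vehicle replicate 1. Ptgds counts per count of Slc6a13 were 8.11 and 10.3 in the vehicle and 28.5 and 21.2 in the cisplatin libraries, and per count of Crabp2 they were 12.8 and 9.07 against 31.1 and 28.5. Per count of Ranbp3l they were 18.7 and 18.3 against 29.7 and 58.9. These ratios use the Ptgds values on which the gene was selected and markers that lay above themselves. Its ratio to Dcn, a general fibroblast gene, was 0.176 and 0.0882 in the vehicle and 0.644 and 0.390 in the cisplatin libraries. The part of meningeal tissue in the Ptgds difference was not tested.

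Choroid plexus was nearly absent, with its defining marker Ttr, the transthyretin gene, at 3 and 0 counts in the vehicle and 1 and 2 in the cisplatin libraries. Of the 7 markers found, 4 were tested, of which 1 lay above, where 20.6% of all genes did. It was Kcnj13, a potassium channel (6 and 2 against 33 and 15 counts, log2 fold change 2.43, adjusted p = 0.522 from edgeR). The summed choroid plexus level, 85.1 and 53.8 CPM in the vehicle and 124.5 and 81.0 CPM in the cisplatin libraries, came mostly from Aqp1, a water channel that other cells also express. Otx2 was not analysed here. The summed oligodendrocyte level was 163.5 and 35.8 CPM in the vehicle and 35.5 and 48.1 CPM in the cisplatin libraries, and Cldn11 was its marker with the highest mean CPM. Its part in the Ptgds difference was not tested.

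For mast cells and macrophages, the known sources of Hpgds, the summed marker levels overlapped between the groups, while single macrophage markers lay above or below. The summed mast cell level was 84.9 and 40.9 CPM in the vehicle and 60.6 and 47.9 CPM in the cisplatin libraries, with Kit the highest in mean CPM of its 8 markers and 0 of 8 above or below. The summed macrophage level was 68.2 and 79.5 CPM in the vehicle and 70.7 and 79.1 CPM in the cisplatin libraries, with 3 of 11 markers above and 4 below, where 20.6% and 21.2% of all genes lay so, and Csf1r the highest in mean CPM. The fibroblast level was 9509 and 13240 CPM against 5073 and 10050 CPM, with 0 of 7 markers above and 3 below, against 21.2% of all genes below, and Col1a1 the highest in mean CPM. DESeq2 called 1 of the 7, Col1a2 (log2 fold change -1.59), and edgeR called 0.

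**Figure D5:**
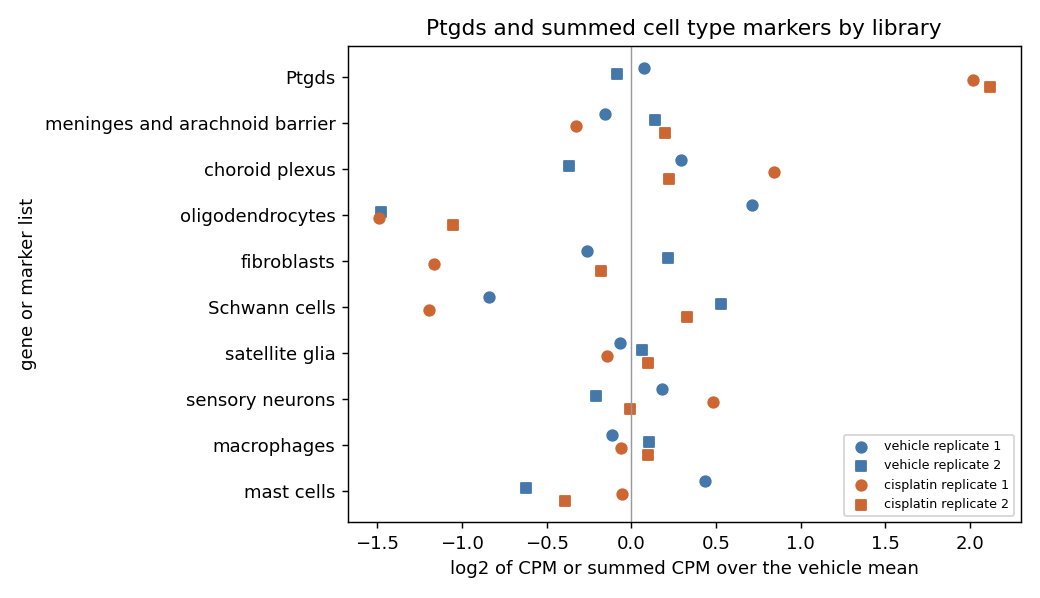
Ptgds CPM and the summed CPM of cell type marker lists in each library, as log2 of the value over the mean of the vehicle libraries (blue, vehicle; orange, cisplatin; circles, replicate 1; squares, replicate 2). Ptgds, which was selected on its higher cisplatin counts, lies near 0 in both vehicle libraries and is far higher in both cisplatin libraries. In none of the 9 lists plotted do both cisplatin sums lie above both vehicle sums, although single markers of some lists do. The part of cell types in the Ptgds difference was not tested.

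The genes next to Ptgds on chromosome 3 had smaller log2 fold changes than Ptgds, which was selected on its difference. These neighbours were chosen after the values were seen, as the protein-coding genes within 60 kb. Clic3, a chloride channel gene that ends 5558 bases away, had 185 and 92 counts in the vehicle and 343 and 200 counts in the cisplatin libraries (log2 fold change 0.86, adjusted p = 0.533 from edgeR), and its groups did not overlap in CPM. On the other side Lcn12, the nearest lipocalin at 27450 bases, lay below by -0.56. Fut7 (0.70) and Npdc1 (0.19) also lay above in both cisplatin libraries, where 20.6% of all genes did. Abca2, at 17314 bases, differed by -0.36, C8g by 0.40, Fbxw5 by 0.07 and Traf2 by -0.03, with groups that overlapped. RGD1306215 had 1 count in all. In the deposited coordinates 0 genes overlapped any of the 10 enzymes.

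The 5 tested genes whose profile over the 4 libraries was closest to that of Ptgds, by root-mean-square distance of centred log2 CPM, were AABR07031691.1 (0.176), RGD1564318 (0.280), LOC100911440 (0.287), LOC100910336 (0.295) and Wdr62 (0.323). All but LOC100910336 were low. AABR07031691.1 had 2 and 2 counts in the vehicle and 13 and 13 in the cisplatin libraries, and LOC100910336 had 477 and 313 against 1131 and 1813 counts. Wdr62, which encodes a protein of the mitotic spindle, had 12 and 7 against 38 and 28 counts, and none of the 5 is in the gene lists above.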

How the data were processed

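Polyadenylated RNA of pooled lumbar DRGs was sequenced as paired reads of 150 bases. The authors aligned them with HISAT2 2.0.5 to Rnor_6.0 (Ensembl) and used StringTie 1.3.3b, and the submitters' processing notes also name featureCounts 1.5.0-p3; whether strand was used is not given in the sources used here. Raw counts per gene were deposited for 33506 genes, without normalisation. FPKM values were deposited as well; each equalled the count over gene length and 1 constant per library, which was 0.938 to 1.10 times the total count and close to the TMM-scaled library size. Coordinates are as deposited.

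Groups came from the labels. Protein-coding genes were filtered with filterByExpr, TMM-normalised (factors 0.938 to 1.1) and compared with edgeR 4.0.16 (glmQLFit, glmQLFTest; R 4.3.3) on all 4 libraries without a block. Genes were called at an adjusted p under 0.05 and at least 1.5-fold. Standard errors are the log2 fold change over the root of F. The floor of 3 counts was 0.118 to 0.152 CPM; it covers counting error only, since reads carried no molecular identifiers. Profiles were compared on log2 CPM with a prior count of 2. Alternatives were DESeq2 1.42.0 and its size factors, scaling by library size alone, testing all genes with a count, a minimum of 10 counts in each library, all biotypes, the replicate block, a gene length correction (lowess, span 0.3), limma 3.58.1 on log2(FPKM + 1) and log2(FPKM + 0.1), which understates the change of low genes, unadjusted p, and leaving out each library. The fits were tested on simulated data.

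The genes and lists were chosen with earlier results of these data known. Named genes were the 10 enzymes, up to 4 genes per pathway list with the smallest p among non-overlapping genes, the most abundant and any absent marker of the lists used, overlapping genes, and the 5 profiles closest to Ptgds. Mgll, Tbxas1, the D2 receptors, Ptgir, Apod, the genes near Ptgds and further markers were named after their values were seen. Sequences are from RefSeq (GRCr8); promoters were matched by symbol.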

Additional observations from a re-analysis of the deposited data

How the results depend on the processing

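The log2 fold change of Ptgds was 1.81 with the gene length correction, 1.99 to 2.16 when each library was left out in turn and 2.00 to 2.08 otherwise. Its share of synthase FPKM, 16.4% and 43.05% over 14 genes, was 42.6% (vehicle) and 72.3% (cisplatin) over the 6 synthases among the enzymes. The number of other enzymes above in both cisplatin-treated libraries, 4, was 1 with library size alone and ranged from 4 to 6 when each library was left out, both chosen after seeing the data. No alternative called any of the 7 tested enzymes (97 of 97 values), although Ptgs1 ranged from -0.23 to 0.52, Ptgs2 from -0.47 to 0.41 and Ptges2 from -0.01 to 0.37. Ptgs2 has no value with a minimum of 10 counts in each library. The 1 gene called among all genes became 4 without the filter, 2 with a minimum of 10 counts in each library, 140 with DESeq2 (50 higher, 90 lower), 4 with limma on log2(FPKM + 1), 2 on log2(FPKM + 0.1), 1170 at an unadjusted p with the same fold change, and 0 (without cisplatin replicate 1) to 7 (without cisplatin replicate 2) when each library was left out, with 5 without vehicle replicate 1 and 3 without vehicle replicate 2. Where a group kept 1 library, that library was assumed to vary like the other group. With the fold threshold kept and an unadjusted p under 0.05, 1 gene of the lists around the enzymes passed, the lipocalin Lcn2.

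Replicate numbers in the titles name different rats. Deviations of same-numbered libraries from their group means correlated across genes (Pearson r = 0.444, Spearman rho = 0.567), which with 2 pairs is no evidence of pairing from the design. With the replicate block, 1532 genes were called (494 higher, 1038 lower), but none of the 7 enzymes. Of the lists around the enzymes, 3 genes were called, namely Mgll (-0.90), Pla2g3 (0.64) and the lipocalin Lcn2 (0.97). The log2 fold change of Ptgds with the block was 2.07. The causes of these moves were not tested. Low counts limit Hpgds, Hpgd, Ptgs2 and both prostaglandin D2 receptors.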
